A study of Mus musculus with 19 samples.

Results

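Mice carrying the 3xTg transgenes were compared with mice that do not, in prefrontal cortex taken at 20 months of age. All 19 arrays of the series entered the comparison. The 10 carriers were 4 arrays labelled 3xTgAD/Polb+/- and 6 labelled 3xTgAD. Mice of the former label carry the transgenes and have 1 intact copy of Polb, and those of the latter have both copies. Some 3xTgAD arrays share a code in their headings, so the carriers may be fewer than 10 mice. Except where stated, each array was counted as a separate mouse. The 9 non-carriers were 4 mice labelled Polb+/-, without transgenes and with 1 intact copy, and 5 labelled wild type. Every mouse was labelled female and C57BL/6. The comparison asks what the transgenes go with once the Polb genotype and a difference in label spelling are set aside, both as terms of 1 additive model over 11072 genes. The transgene alleles named in the labels' design text are APPswe and tauP301L.

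The 3xTgAD line models Alzheimer disease. Its human amyloid precursor protein and tau transgenes are driven by the Thy1 promoter, which is active mainly in neurons of the brain, and the mice form amyloid plaques and then tangles of tau with age. Plaques are known to draw microglia, the brain's resident immune cells, and to alter astrocytes and synapses around them. Polb encodes DNA polymerase beta, which fills the gap left when base excision repair cuts out a damaged base. The line is known to have been made on a mixed strain background, so its carriers can differ from C57BL/6 mice at inherited loci that are not the transgenes. Such differences of the line and effects of the transgenes cannot be told apart in this design. The array's probes were designed on mouse transcripts, and whether any of them also reads a transgene was not tested.

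Each array gave an intensity for 25697 probes, and 13232 to 14186 probes were detected on carrier arrays, against 13205 to 14396 on non-carrier arrays. Levels are given as log2 normalised intensity, and a difference is carriers minus non-carriers on that scale. Whether arrays numbered as replicates came from separate litters or dissections is not stated, so p-values measure the spread between these arrays. Fewer cells of a type and less RNA per cell cannot be told apart in pieces of tissue. The mean level of Slc17a7, the vesicular glutamate transporter of cortical excitatory neurons, over all 19 arrays lay at percentile 95.5 of all genes. Ppp1r1b, a marker of striatal neurons, lay nearly as high, at percentile 92.2 (10.73 to 12.71). The brightness of these markers thus does not tell cortex from striatum. Drd1, a dopamine receptor of striatal neurons, lay at percentile 58.4 and ranged from 6.79 to 9.77 in carriers and from 7.56 to 10.51 in non-carriers.

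Several arrays stood apart in the measures given here. Among 33 genes whose levels fell into separate high and low sets of arrays, with a gap of at least 1 on the log2 scale and at least 3 arrays on each side, 8 split by the spelling of the source label ("20- month" on 11 arrays, "20 month" on 8). In 4 others the arrays labelled wild type 1 and wild type 2 lay with all 10 carriers, and the 7 other non-carriers lay on the far side. Those 2 arrays are also the only wild type arrays with the spelling without a hyphen. Where leaving them out changes a call or a direction described below, the value without them is given. That omission was added after the values were seen. Leaving out non-carriers that read like carriers favours a wider separation, so calls gained and p-values lowered that way are not independent of the choice. Polb itself ranged from 6.53 to 7.26 on the 8 heterozygote arrays and from 7.53 to 7.97 on 9 of the arrays labelled as having both copies. The others so labelled, 3xTgAD 4 and 3xTgAD 6, read 6.89 and 6.63, inside the heterozygote range and against their labels. By label the groups thus overlapped, which touches the Polb term but not carrier status. In 3 carriers, namely 3xTgAD/Polb+/- 1 and 2 and 3xTgAD 3, the mean of respiratory complex I genes was 10.82, 10.31 and 10.88, against 11.42 to 11.62 over the 9 non-carriers. On 3xTgAD 6, 3xTgAD 4 and 3xTgAD/Polb+/- 4 it was 11.29, 11.37 and 11.40, also below every non-carrier but by less. The 3 lowest, called the carriers low in complex I below, were picked for that mean after the values were seen. What set these and the other arrays apart was not tested.

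With the threshold at a limma adjusted p of 0.05, 97 of 11072 genes (0.876%) differed between carriers and non-carriers. Of these, 43 (0.388%) were higher and 54 (0.488%) were lower in carriers. The smallest adjusted p was 0.00417, and 2236 genes had an unadjusted p under 0.05. The 97 differences were between 0.24 and 2.85 in size, with a median of 0.56, and 14 exceeded 2-fold. Over all genes tested the median difference was 0.01, with 5839 genes above and 5233 below 0. Scaling by array medians in place of quantile normalisation moved that median to -0.10 and gave 141 genes, 17 higher and 124 lower in carriers (12.1% higher). All 97 genes kept their sign under that scaling, as their choice on the same arrays favours, and 68 of them passed. The arrays labelled 3xTgAD 2 and 5 carry the same code in their headings, and with them averaged as if they were 1 mouse 37 genes passed, all among the 97.

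**Figure D1:**
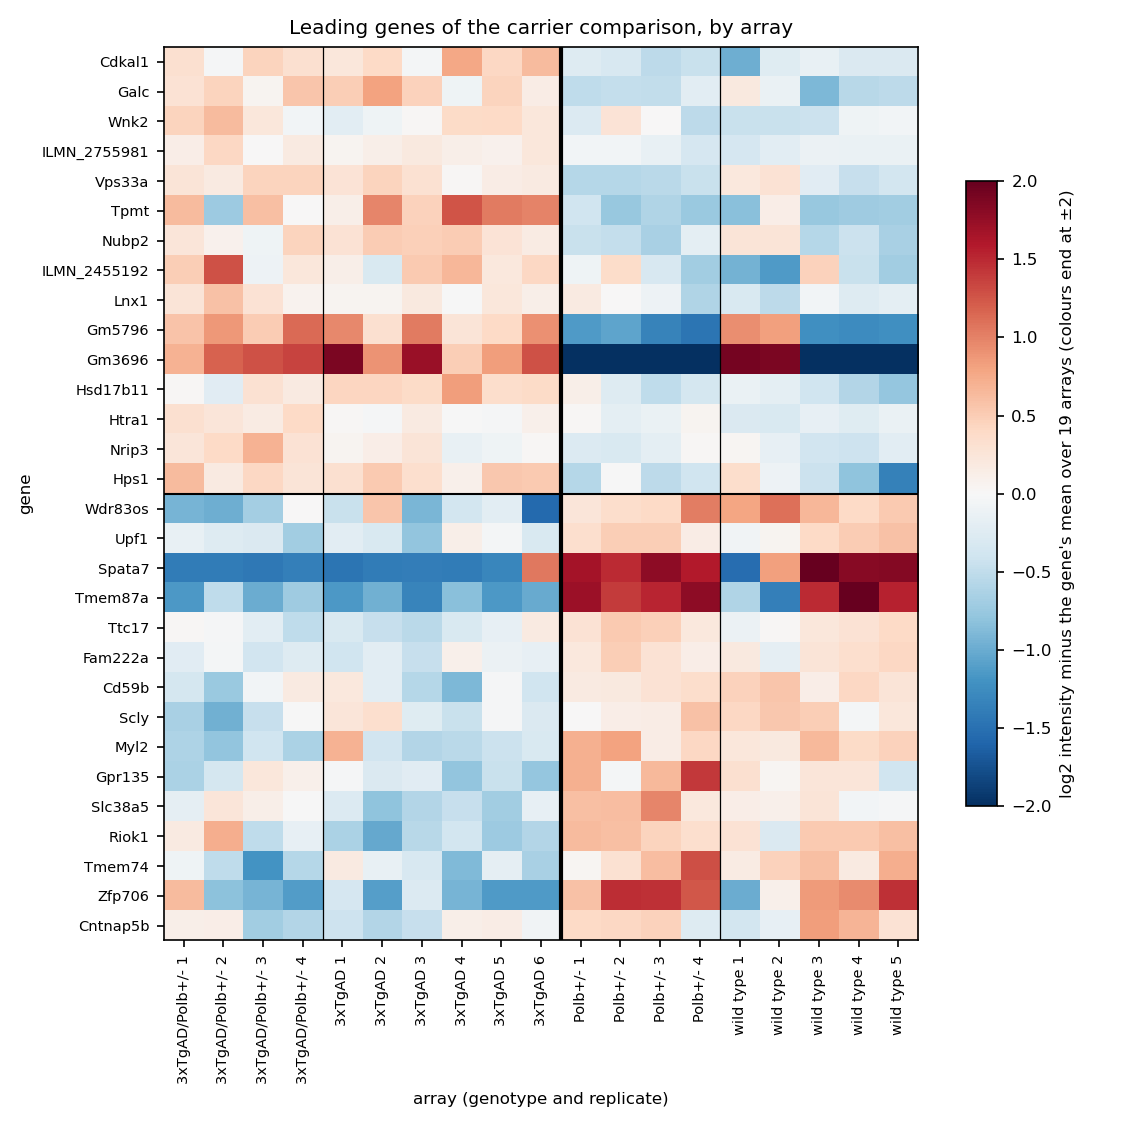
Levels of the 30 genes with the smallest p, 15 higher and 15 lower in carriers, on each of the 19 arrays, as log2 intensity minus the gene's mean over all arrays (colour scale from -2 to 2). Most rows change colour between carriers on the left and non-carriers on the right, and the columns of wild type 1 and 2 share the carriers' colour for Gm3696, Gm5796 and Tmem87a.

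The count depended on single arrays. Without the arrays labelled wild type 1 and 2, 219 genes passed (1.98%), 92 higher and 127 lower, and 75 of the 97 were among them. Without the 3 carriers low in complex I, 11 genes passed, all of them among the 97. Leaving out 1 array at a time gave 25 genes (without Polb+/- 4) to 389 genes (without 3xTgAD/Polb+/- 3), and 174 without wild type 1. Omitting 1 of 12 arrays at a time, namely 3xTgAD/Polb+/- 1 and 2, 3xTgAD 2, 3, 5 and 6, Polb+/- 1, 3 and 4, and wild type 3, 4 and 5, gave 25 to 53. In these 19 fits, 23 of the 97 genes passed every time. The other 74 missed the threshold in at least 1 of them, with adjusted p of up to 0.136 (limma).

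The levels of carriers and non-carriers did not overlap at all for 6 genes (0.0542% of those tested), of which 3 were among the 97. Those 3 were Cdkal1, Sv2b and the unnamed probe ILMN_2755981, and the other 3, named here after their values were seen, were Mrpl27, Skap2 and the unnamed probe ILMN_2613696. Without wild type 1 and 2 the groups did not overlap for 61 genes (0.551%), 29 of them among the 97.

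Of the 23 genes that passed in every fit with 1 array left out, 6 also passed without wild type 1 and 2 and without the 3 carriers low in complex I. Higher in carriers among them were Cdkal1, Tpmt and the unnamed probe ILMN_2755981. Lower were Wdr83os, Upf1 and Riok1. Cdkal1, a methylthiotransferase that modifies lysine transfer RNA, read 7.89, 7.54, 8.004 and 7.87 on the 3xTgAD/Polb+/- arrays and 7.79, 7.96, 7.52, 8.33, 7.97 and 8.20 on the 3xTgAD arrays. It read 7.30, 7.25, 7.03 and 7.11 on the Polb+/- arrays and 6.59, 7.31, 7.42, 7.27 and 7.28 on the wild type arrays. Every carrier was above every non-carrier, and the difference was 0.77 ± 0.11 (SE; limma adjusted p = 0.00417).

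Tpmt, which methylates thiopurine drugs, read 6.04, 4.68, 6.01 and 5.42 in 3xTgAD/Polb+/- and 5.53, 6.38, 5.88, 6.67, 6.46 and 6.40 in 3xTgAD. In Polb+/- it read 5.01, 4.65, 4.81 and 4.68, and in wild type 4.58, 5.55, 4.65, 4.70 and 4.72. It was detected on 9 of 10 carrier arrays, 3xTgAD/Polb+/- 2 being the exception, and on 1 of 9 non-carrier arrays, wild type 2. The difference was 1.13 ± 0.20 (limma adjusted p = 0.0116). Without wild type 1 and 2 no non-carrier array detected it, and carriers were at least 1.70-fold higher, a bound set by the lowest signal detected on each array.

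Wdr83os, a protein of the endoplasmic reticulum that helps membrane proteins fold, read 7.83, 7.79, 8.08 and 8.77 in 3xTgAD/Polb+/- and 8.31, 9.31, 7.84, 8.39, 8.55 and 7.20 in 3xTgAD. It read 9.002, 9.10, 9.15 and 9.79 in Polb+/- and 9.55, 9.85, 9.42, 9.15 and 9.29 in wild type. Only 3xTgAD 2 reached the non-carriers, and the difference was -1.25 ± 0.18 (limma adjusted p = 0.00417). Upf1, the RNA helicase of nonsense-mediated decay, had a lowest, median and highest level of 7.86, 8.37 and 8.76 in carriers, against 8.59, 9.05 and 9.25 in non-carriers. Its difference was -0.56 ± 0.08 (limma adjusted p = 0.00453), and its 2 other probes gave -0.54 and -0.46. Riok1, a kinase needed to finish the small ribosomal subunit, read 7.47, 7.96 and 9.22 (lowest, median, highest) in carriers and 8.21, 9.01 and 9.13 in non-carriers, and differed by -0.69 ± 0.13 (limma adjusted p = 0.0139). Its highest carrier, 3xTgAD/Polb+/- 2, lay above all non-carriers, and its other probe gave -0.04, so the probes of Riok1 disagree.

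Galc, Vps33a and Hps1 were also among the 15 genes with the smallest p that were higher in carriers. Galc, the lysosomal enzyme that degrades galactosylceramide of myelin, read 6.31, 6.83 and 7.18 (lowest, median, highest) in carriers and 5.49, 5.89 and 6.58 in non-carriers. The difference was 0.70 ± 0.10 (limma adjusted p = 0.00453), the highest non-carrier was wild type 1, and a dimmer second probe gave 0.25. Vps33a, a subunit of the complexes that tether endosomes and lysosomes, had the levels 11.04, 11.28 and 11.46 in carriers and 10.45, 10.57 and 11.31 in non-carriers. It differed by 0.51 ± 0.08 (limma adjusted p = 0.00815), by 0.66 without wild type 1 and 2, and by 0.41 on its other probe. Hps1, whose product acts in making lysosome-related organelles, differed by 0.77 ± 0.15 (limma adjusted p = 0.0234), a call that ended without 3xTgAD/Polb+/- 1, 3xTgAD 5, Polb+/- 4 or wild type 4 (adjusted p of up to 0.0734).

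The other genes among the 15 with the smallest p that were higher in carriers have diverse roles. Wnk2, a kinase that regulates ion transport, differed by 0.49 ± 0.08, and Nubp2, which takes part in assembling cytosolic iron-sulfur clusters, by 0.55 ± 0.10 (limma adjusted p = 0.00751 and 0.0135). The probes of Nubp2 disagree in size: one nearly as bright gave 0.12, with an adjusted p of 0.322 over all probes (limma), and a dimmer one gave 0.82. Hsd17b11, a hydroxysteroid dehydrogenase of lipid droplets, differed by 0.63 ± 0.12 (limma adjusted p = 0.0188, and 0.0536 without Polb+/- 4), and its 2 other probes gave 0.52 and 0.65. Htra1, a secreted serine protease, differed by 0.30 ± 0.06 (limma adjusted p = 0.0215), and by 0.26 (adjusted p = 0.0569) without wild type 1 and 2. The ubiquitin ligase Lnx1 (0.43), Nrip3 (0.36) and the unnamed probes ILMN_2755981 (0.35) and ILMN_2455192 (0.86) complete that set with Gm5796 and Gm3696.

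Among the genes lower in carriers, Cd59b, which blocks the membrane attack complex of complement, read 6.53, 7.15 and 7.64 (lowest, median, highest) in carriers and 7.57, 7.71 and 7.98 in non-carriers, a difference of -0.65 ± 0.11 (limma adjusted p = 0.0116). Scly, which frees selenium from selenocysteine, differed by -0.60, Slc38a5, a transporter of glutamine, by -0.56, and Ttc17 by -0.43. Myl2, a myosin light chain best known from heart muscle, differed by -0.86 ± 0.15 (limma adjusted p = 0.0116). It was detected on 1 of 10 carrier arrays (3xTgAD 1, at 6.08) and on all 9 non-carrier arrays (5.55 to 6.20). Gpr135 (-0.73), Tmem74 (-0.95), Fam222a (-0.41) and Cntnap5b (-0.37) also passed. In all, 20 of the 97 genes had other kept probes, and 25 of those 26 probes gave the same sign as the probe used, some with a much smaller difference. The exception belongs to Nrxn3, a presynaptic adhesion protein.

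**Figure D2:**
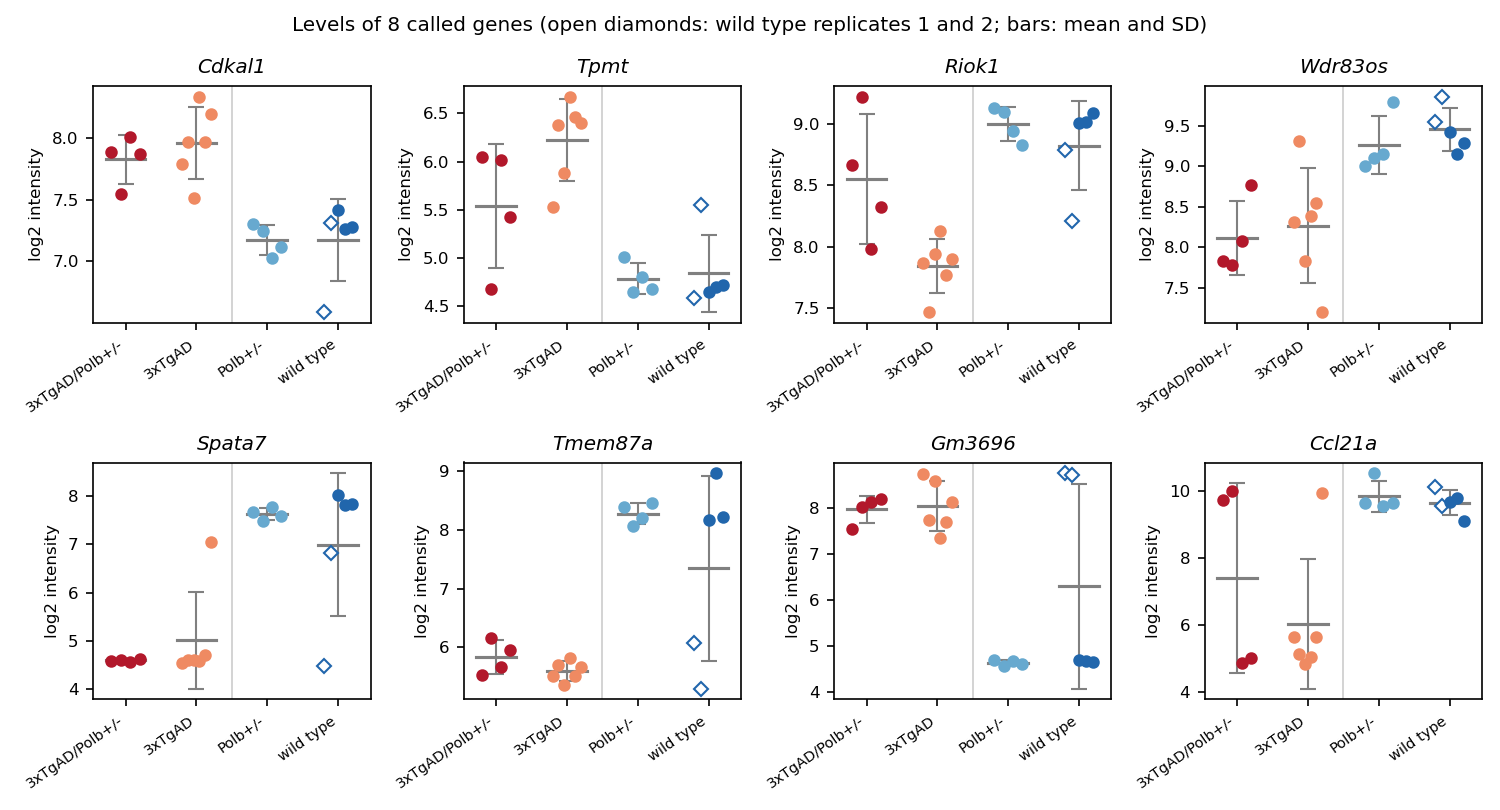
Log2 intensity of 8 genes on each array in the 4 genotypes, with the mean and SD of each genotype, and open diamonds for wild type 1 and 2. Carriers and non-carriers are fully apart for Cdkal1, while wild type 1 and 2 lie at the carriers' level for Gm3696 and Tmem87a and 3 carriers lie at the non-carriers' level for Ccl21a.

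The largest differences came from genes that read near background on some arrays and well above it on others. Spata7, a protein of the photoreceptor cilium, read 4.59, 4.60, 4.56 and 4.63 in 3xTgAD/Polb+/- and 4.54, 4.60, 4.61, 4.59, 4.70 and 7.05 in 3xTgAD. It read 7.66, 7.49, 7.78 and 7.59 in Polb+/- and 4.48, 6.81, 8.02, 7.81 and 7.83 in wild type. It was detected on 1 of 10 carrier arrays, 3xTgAD 6, and on 8 of 9 non-carrier arrays, wild type 1 being the exception. The difference was -2.27 ± 0.35 (limma adjusted p = 0.00744), and a second probe gave -2.19. Between the heterozygotes, where none of the 4 carriers detected it, carriers were at least 4.99-fold lower.

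In 4 genes the arrays labelled wild type 1 and 2 lay with the carriers. Those 2 arrays stood apart in these same genes, so the wider separation and smaller p-values without them were fixed by that choice. Gm3696, a predicted gene with no settled role, read 7.54, 8.02, 8.12 and 8.19 in 3xTgAD/Polb+/- and 8.72, 7.74, 8.57, 7.34, 7.68 and 8.12 in 3xTgAD. It read 4.68, 4.55, 4.67 and 4.59 in Polb+/- and 8.75, 8.72, 4.69, 4.66 and 4.65 in wild type. Its difference was 2.18 ± 0.41 (limma adjusted p = 0.0178, and 0.0540 without Polb+/- 4), and a dimmer second probe gave 0.75. Without wild type 1 and 2 it was 3.21 (limma adjusted p = 6.04e-10), and carriers were at least 7.07-fold higher, since no other non-carrier array detected it. Its neighbour Gm5796 read 11.79 to 12.65 in carriers and 10.06 to 10.47 in the 7 other non-carriers, with 12.46 and 12.34 on wild type 1 and 2. It differed by 1.35 ± 0.25 with all arrays (limma adjusted p = 0.0149) and by 1.93 without those 2 (limma adjusted p = 1.42e-07). Predicted genes of this kind can have near-identical copies, and whether either probe reads 1 copy alone was not tested, so both values are uncertain.

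Tmem87a, a membrane protein of the Golgi apparatus, read 5.53, 6.17, 5.67 and 5.96 in 3xTgAD/Polb+/- and 5.52, 5.70, 5.35, 5.83, 5.52 and 5.66 in 3xTgAD. It read 8.38, 8.07, 8.20 and 8.46 in Polb+/- and 6.08, 5.30, 8.16, 8.96 and 8.22 in wild type. The difference was -1.91 ± 0.30 (limma adjusted p = 0.00751), and -2.63 without wild type 1 and 2 (limma adjusted p = 2.41e-09). H2-Bl, a class I histocompatibility gene named here after its values were seen, read 7.35 to 8.11 in carriers and 4.97 to 5.94 in the 7 other non-carriers, with 8.28 and 7.70 on wild type 1 and 2. It differed by 1.51 ± 0.31 (limma adjusted p = 0.0290) and by 2.24 without them (limma adjusted p = 4.9e-08). Class I genes are closely related, and its probe may read more than 1 of them.

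Over the 97 genes, wild type 1 was nearer to the carriers' mean than to the mean of the 7 other non-carriers in 43 genes (44.3%), and wild type 2 in 34 (35.1%). Each of the 7 others was nearer to the carriers in 6 to 16 genes. In turn each carrier was nearer to the non-carriers in 6 to 28. Without those 2 arrays 144 further genes passed and 22 of the 97 did not. Among the 144 were Sgsm1 (-0.89, against -0.55 with them), Ddr1, a collagen receptor of myelinating cells (-1.27, against -0.79), Cdsn (1.31, against 0.83) and Gm5797 (1.16, against 0.78). These 4 are named after their values were seen. Their limma adjusted p without those arrays was at most 0.000332, and with them it was 0.0639 to 0.0832.

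The 3 largest differences belonged to a chemokine family on chromosome 4 and were carried by a different set of arrays. Ccl21a, Ccl21b and Ccl21c encode CCL21, the chemokine that draws T cells and dendritic cells through the receptor CCR7. They are named here after their values were seen. Mouse strains differ in the number of Ccl21 copies, and copies can be nearly identical, so array values may not belong to the copy named. The windows around their start sites show how alike copies can be: Ccl21a (chr4:42773942-42774240, minus strand) and Ccl21d (chr4:41903363-41903661, plus strand) share 297 of 299 bases in GRCm38.p6, from RefSeq. They are shown because such copies may limit what a probe can tell. The sequence of the probe of Ccl21a was not checked against them. No gene tested was named Ccl21d. The windows of Ccl21a and Ccl21b, both tested, were not alike, with 38% of 121 bases equal at the best ungapped offset. Capitals mark the 2 positions that differ, 5′ to 3′.
Ccl21a: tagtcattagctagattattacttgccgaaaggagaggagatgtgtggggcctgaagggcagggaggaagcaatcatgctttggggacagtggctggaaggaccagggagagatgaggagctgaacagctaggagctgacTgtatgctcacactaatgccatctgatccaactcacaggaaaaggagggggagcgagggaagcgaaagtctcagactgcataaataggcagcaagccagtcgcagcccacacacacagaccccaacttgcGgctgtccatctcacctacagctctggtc
Ccl21d: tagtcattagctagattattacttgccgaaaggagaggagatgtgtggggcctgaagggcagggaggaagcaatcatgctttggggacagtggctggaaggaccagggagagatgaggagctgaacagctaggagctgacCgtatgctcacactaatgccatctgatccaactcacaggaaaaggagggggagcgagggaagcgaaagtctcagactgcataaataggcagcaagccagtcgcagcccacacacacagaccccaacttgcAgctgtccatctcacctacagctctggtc

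Ccl21a read 9.71, 9.998, 4.87 and 5.01 in 3xTgAD/Polb+/- and 5.65, 5.13, 4.84, 5.05, 5.63 and 9.92 in 3xTgAD. It read 9.64, 10.52, 9.55 and 9.62 in Polb+/- and 10.11, 9.54, 9.65, 9.78 and 9.10 in wild type. Thus 7 carriers were low, while 3xTgAD/Polb+/- 1 and 2 and 3xTgAD 6 read like all 9 non-carriers. The difference was -2.85 ± 0.62 (limma adjusted p = 0.0394), and -2.48 for Ccl21b and -2.60 for Ccl21c (limma adjusted p = 0.0394 and 0.0426). Without wild type 1 and 2 the calls ended, at -2.06, -1.77 and -1.85 (limma adjusted p = 0.0950, 0.0950 and 0.102), although those arrays lay with the other non-carriers. Without the 3 carriers low in complex I, 2 of which read high here, the differences were -3.70, -3.22 and -3.42 (limma adjusted p = 0.0179, 0.0186 and 0.0180). Leaving out 1 array at a time ended the call of Ccl21a in 11 of 19 fits (adjusted p of up to 0.0894).

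Sema5a, an axon guidance protein, and Zfp706, a zinc finger protein, also had large differences. Sema5a, named after its values were seen, differed by -1.72 ± 0.38 (limma adjusted p = 0.0413, and 0.00329 without wild type 1 and 2), with -1.50 from a second probe. Its levels were 5.94, 7.04 and 8.59 (lowest, median, highest) in carriers and 6.91, 9.28 and 9.72 in non-carriers, and the groups overlapped. Zfp706 was detected on 1 of 10 carrier arrays and on 8 of 9 non-carrier arrays and differed by -1.41 ± 0.27 (limma adjusted p = 0.0174, and 0.0569 without Polb+/- 4).

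The genes that passed were spread unevenly over the genome. Of the 97, 90 are named genes. Chromosome 13 held the most, 11 of 346 genes tested (3.18%), against 0.876% over all genes, with 4 higher and 7 lower in carriers. In order along it they were H4c12, H4c8, Cdkal1, Foxq1, Ly86, Riok1, Elovl2, Tpmt, Wnk2, Trpc7 and Zfp738. The 7 from Cdkal1 to Wnk2 fell within positions 82 to 138 of the tested genes of that chromosome. They include the higher Cdkal1, Elovl2 (an elongase of long polyunsaturated fatty acids, 0.38), Tpmt and Wnk2 and the lower Foxq1 (a forkhead transcription factor, -0.50), Ly86 and Riok1, so both directions are mixed. The others were the histone H4 genes H4c12 (-0.62) and H4c8 (-0.96), the cation channel Trpc7 (-0.39) and Zfp738 (-0.72). On chromosome 13, 12 genes passed (3.47%) without wild type 1 and 2, where Elovl2 and Ly86 did not (limma adjusted p = 0.0583 and 0.0586).

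Chromosomes 5 and 8 tied for the next place with 10 genes each, of 657 (1.52%) and of 560 (1.79%). On chromosome 5 they were Vps33a, Hsd17b11, Lnx1 and Tbc1d1 (a Rab GTPase-activating protein, 0.41), higher in carriers, and Fam222a, Myl2, Hspb8 (a small heat shock protein, -0.96), Pebp1 (an inhibitor of Raf kinase, -0.77), Tmem132d (-0.89) and Ap4m1 (a subunit of the AP-4 adaptor, -0.41), lower. On chromosome 8 they were Gmip (0.54), Ssbp4 (0.73), Clgn (a chaperone of the endoplasmic reticulum, 0.43) and Egln1 (the prolyl hydroxylase that marks hypoxia-inducible factor for decay, 0.30), higher. Lower there were Wdr83os, Upf1, Ccdc124 (-0.76), Coa6 (an assembly factor of respiratory complex IV, -0.54), Tmem38a (a potassium channel of the sarcoplasmic reticulum, -0.30) and Il15 (a cytokine of lymphocytes, -0.42). Of these genes, Tbc1d1 and Egln1 had an adjusted p over 0.05 without wild type 1 and 2 (0.0576 and 0.0811, limma).

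Chromosome 17, which holds the major histocompatibility complex, had 8 of 510 genes (1.57%), and 28 (5.49%) without wild type 1 and 2, the largest gain of any chromosome. No gene passed on chromosomes 3 and 18, and without those 2 arrays 4 and 0 did. Of the 90 genes that could be placed, 37 (41.1%) had another gene that passed within 10 tested genes on either side, against 13.7% of all 10213 placed genes. With wild type 1 and 2 left out these shares were 54% of 202 and 27.2%. On chromosome 12, Nrxn3 (0.56), Galc and Spata7 stood at positions 235, 238 and 240, with Galc and Nrxn3 higher and Spata7 lower in carriers. On chromosome 14, Gm5796 and Gm3696 were next to each other, and on chromosome 4 Ccl21b and Ccl21a stood at positions 86 and 88. Neighbours of similar sequence count in these shares.

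**Figure D3:**
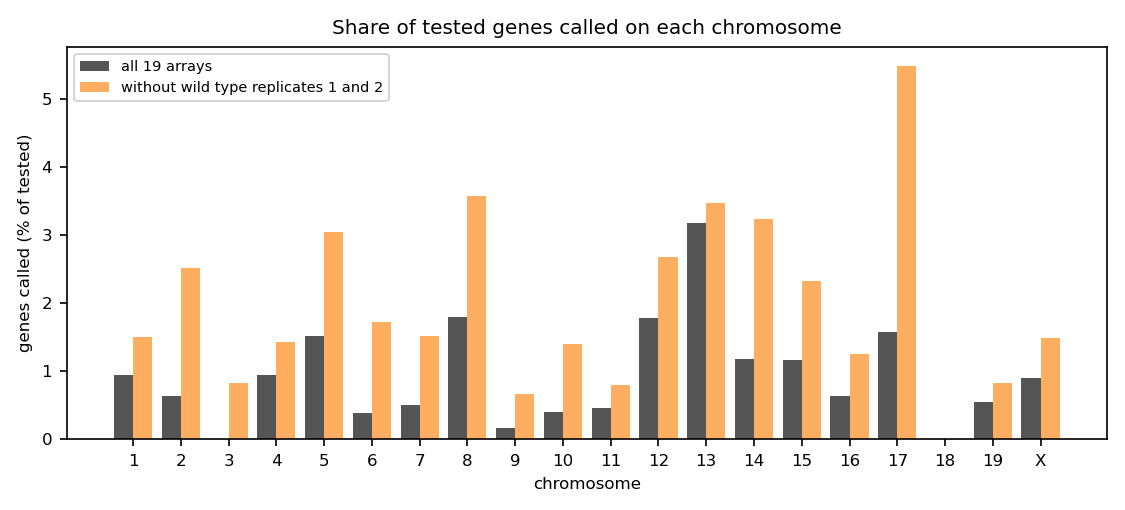
Share of the genes tested on each chromosome that passed a limma adjusted p of 0.05, in percent, with all 19 arrays and without wild type 1 and 2. Chromosome 13 has the largest share with all arrays (3.18%), and chromosome 17 has the largest without those 2 (5.49%).

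The difference was then fitted within each Polb background, with no array in common. Between 3xTgAD/Polb+/- and Polb+/- (8 arrays), 152 genes passed (1.37%), 22 higher and 130 lower, of which 31 were among the 97. That count was 12 without the carriers low in complex I, 0 with the striatal mean as a covariate, and 40 to 633 with 1 array left out. In the same comparison the medians of striatal, complex I and ribosomal genes were -1.64, -0.58 and -0.64, and their part in the count was not tested further. Between 3xTgAD and wild type (11 arrays), 0 genes passed (0%), with 1245 at an unadjusted p under 0.05 and a smallest adjusted p of 0.0783 (limma). That count was 25 with wild type 1 and 2 left out. It was 12 without 3xTgAD 4 and 6, whose Polb level lay in the heterozygote range, so their place in this background is uncertain. The interaction of transgene and Polb genotype, the test of whether the backgrounds differ, was past the threshold for 0 genes (0%; 616 unadjusted, smallest adjusted p 0.652, limma), so a difference between backgrounds was not shown for any gene. An unadjusted p under 0.05 in both backgrounds was found for 363 genes, 29.2% of those so found with both Polb copies and 19.4% of those in heterozygotes. Of them 355 had the same sign in both and 8 opposite signs.

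All 97 genes had the same sign in both backgrounds, as their choice on the pooled arrays favours, and 85 had an unadjusted p under 0.05 in both. Of all 11072 genes, 7237 had the same sign in both. Across all 11072 genes the differences in the 2 backgrounds correlated at r = 0.458, a description over genes, which are not independent. Over all 11072 genes 3532 had a smaller difference in heterozygotes, and of the 97, 26 did, so this count is not particular to them. Riok1 was among the 26 (-0.31 in heterozygotes, -0.94 with both copies), as was Ccl21a (-1.70 and -3.52). Larger in heterozygotes was Tmem87a (-2.46 and -1.62), where wild type 1 and 2 stand in the fit with both copies. No Polb+/- array detected Gm3696 or Tpmt, so the heterozygote carriers were at least 6.77-fold and at least 1.26-fold higher there, and the backgrounds were not ranked for them.

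Only 5 genes had an unadjusted p under 0.001 in both backgrounds. They were Wdr83os (-1.31 in heterozygotes, -1.23 with both copies), Galc (0.74 and 0.71), Upf1 (-0.64 and -0.51), Gsdmc2, a gasdermin (0.92 and 0.52), and Slc25a34, a mitochondrial carrier protein (-0.78 and -0.44). With all 19 arrays Gsdmc2 and Slc25a34 differed by 0.65 and -0.54 (limma adjusted p = 0.0441 and 0.0494).

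**Figure D4:**
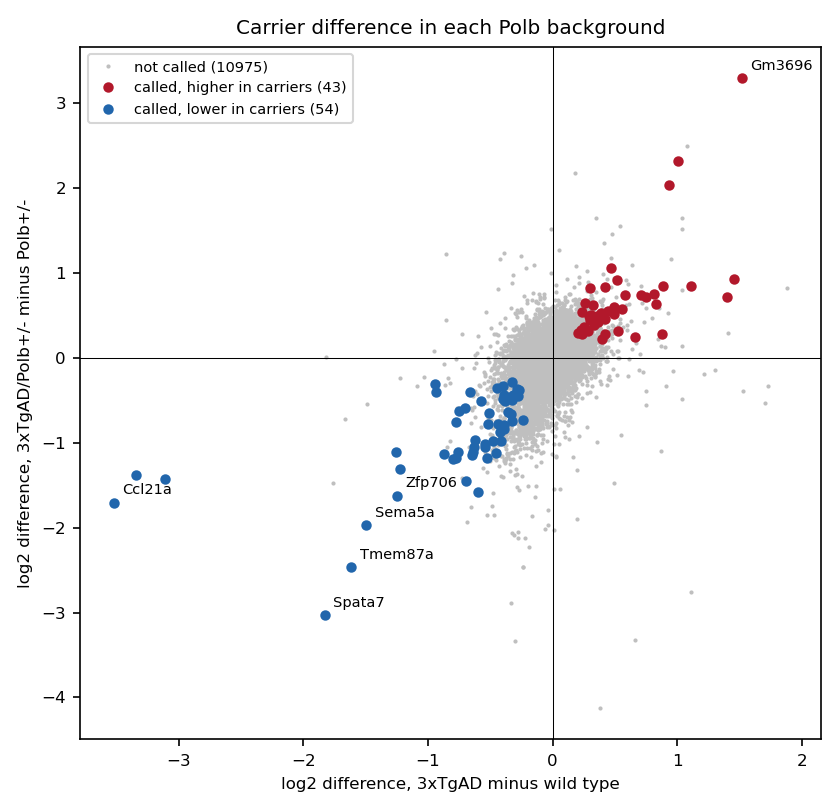
Each point is a gene, with its log2 difference between 3xTgAD and wild type (both Polb copies) on one axis and between 3xTgAD/Polb+/- and Polb+/- (heterozygotes) on the other. The 97 genes that passed with all arrays lie in the 2 quadrants of equal sign, and Ccl21a, Spata7, Gm3696, Tmem87a, Zfp706 and Sema5a are labelled.

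The label spelling was treated as a batch, although what it stands for is not stated. Arrays with a hyphen were 3xTgAD/Polb+/- (2), 3xTgAD (3), Polb+/- (3) and wild type (3), and those without were 2, 3, 1 and 2. The wild type arrays without a hyphen are wild type 1 and 2, so counts within the 2 spellings are not like for like. With those arrays left out, Polb+/- 4 is the only non-carrier of that spelling. Within the arrays spelled with a hyphen 152 genes passed, 57 of them among the 97, and within those without a hyphen 3 did, namely Ccl21a, Ccl21b and Ccl21c. All 97 genes had the same sign within both spellings, as their choice on the same arrays favours. Of all 11072 genes, 7154 had the same sign in both. The arrays labelled 3xTgAD 2 and 5, which share a code, fall in different spellings. Without a hyphen the differences of Ccl21a, Ccl21b and Ccl21c were -4.64, -4.01 and -4.22, and with a hyphen they were -1.49, -1.33 and -1.38. The interaction of transgene and spelling was past the threshold for 1 gene (0.00903%), Cnnm1, a membrane protein of the cyclin M family. It differed by -1.13 with a hyphen and by 0.09 without (interaction -1.21, limma adjusted p = 0.0322), and by -0.62 over all arrays (limma adjusted p = 0.0693).

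Mouse genes that match the transgenes or their promoter did not pass. App, the mouse amyloid precursor protein gene, differed by 0.19 ± 0.07 (limma adjusted p = 0.139), by 0.31 in heterozygotes and 0.13 with both Polb copies, and by -0.02 under median scaling. Mapt, the mouse tau gene, differed by -0.03 ± 0.08 (limma adjusted p = 0.856), and its other probes gave 0.38, -0.08 and -0.11. Thy1, the neuronal surface protein whose promoter drives the transgenes, read 13.81 to 14.69 in carriers and 13.52 to 13.95 in the 7 other non-carriers, with 14.64 and 14.33 on wild type 1 and 2. It differed by 0.37 ± 0.11 (limma adjusted p = 0.0887) and passed without those 2, at 0.49 (limma adjusted p = 0.0350). Polb differed by -0.29 ± 0.14 at equal Polb genotype (limma adjusted p = 0.242), with the arrays labelled 3xTgAD 4 and 6 low among those with both copies.

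In 23 genes of amyloid precursor processing and clearance, 14 were higher and 9 lower in carriers, 0 passed, and the median difference was 0.02. Apbb2, an adaptor that binds the precursor's tail, passed without wild type 1 and 2 (-0.57, limma adjusted p = 0.0464, against -0.30 with them). In 20 genes of tau and its kinases and phosphatases, 14 were higher and 6 lower, 0 passed, and the median was 0.05. The members with the smallest p were Mme, the amyloid-degrading enzyme neprilysin, beside App, and Mark3 and Map2 in the tau list. Under median scaling both medians were below 0, at -0.16 and -0.09, beside -0.10 over all genes.

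Among microglial and immune lists, single genes passed. Of 15 homeostatic microglia genes, 7 were higher and 8 lower. Mertk, a receptor for engulfing dying cells, was higher by 0.33 ± 0.07 (limma adjusted p = 0.0435), and Ly86, the partner of a Toll-like receptor homologue, was lower (-0.71 ± 0.15, limma adjusted p = 0.0391). Both lost the call without wild type 1 and 2 (limma adjusted p = 0.107 and 0.0586), and with 1 array left out Mertk passed in 2 and Ly86 in 9 of 19 fits. The levels of Ly86 were 7.54, 8.27 and 8.89 (lowest, median, highest) in carriers and 8.68, 8.85 and 9.34 in non-carriers. Of 19 genes of plaque-associated microglia, 8 were higher and 11 lower, 0 passed, and the median was -0.03. Trem2, the receptor that microglia need to gather at plaques, had a difference of -0.40 (limma adjusted p = 0.0925) and passed without wild type 1 and 2, at -0.46 (limma adjusted p = 0.0302). Axl, a receptor kinase related to Mertk, had a difference of 0.25 and did not pass. Without those 2 arrays the median of the plaque list was 0.0043. Of 9 complement genes 4 were higher and 5 lower, with a median of -0.04 and 0 passed. Cd59a, an inhibitor of complement, had the smallest p at -0.50, and C4b, a complement component, followed at 0.38, or -0.41 and 0.78 without wild type 1 and 2, where neither passed (limma adjusted p = 0.297 and 0.0612).

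Fpr2, a formyl peptide receptor of myeloid cells named after its values were seen, read 6.44, 7.08 and 8.05 (lowest, median, highest) in carriers and 5.24, 5.93 and 7.13 in non-carriers. It was higher by 1.20 ± 0.26 (limma adjusted p = 0.0391, and 0.00640 without wild type 1 and 2). Among 15 interferon-induced genes 13 were lower in carriers and 2 higher, with a median of -0.24, and 1 passed. That was Rsad2, the antiviral protein viperin, at -0.74 ± 0.17 (limma adjusted p = 0.0434, and 0.0589 without wild type 1 and 2). The mean of the list was 7.14 to 7.89 on carrier arrays and 7.74 to 8.24 on non-carrier arrays, which overlap. The median was -0.12 in heterozygotes, -0.30 with both Polb copies and -0.15 without wild type 1 and 2. Of 15 genes of antigen presentation 11 were lower and 4 higher, with a median of -0.13 and 0 passed, H2-M3 (-0.59) and Psmb9 (-0.43) having the smallest p. H2-M3, a class I gene that presents formylated peptides, passed without wild type 1 and 2, at -0.80 (limma adjusted p = 0.0186), and the list's median was -0.05.

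Most genes of energy supply and protein synthesis had differences below 0, and 1 passed. Of 32 genes of respiratory complex I, the first enzyme of the mitochondrial respiratory chain, 30 were lower and 2 higher, 0 passed, and the median was -0.34. Of 37 genes of complexes II to V, 32 were lower and 5 higher, with a median of -0.30. Ndufb4 (-0.54), Ndufa1 (-0.70), Cox6c (-0.79) and Cox7b (-0.57) came nearest, with limma adjusted p of 0.0544, 0.0846, 0.0614 and 0.0794. Without wild type 1 and 2, Cox6c passed at -0.95 (limma adjusted p = 0.0350), and so did the complex I gene Ndufb10, which was higher in carriers (0.78 there, limma adjusted p = 0.0216, and 0.53 with all arrays, adjusted p = 0.108). Of 54 cytosolic ribosomal protein genes, 46 were lower and 8 higher, with a median of -0.33, and Rpl30 passed (-0.65 ± 0.15, limma adjusted p = 0.0435). Over all 11072 genes 5233 were lower, with a median of 0.01. Under median scaling the medians relative to all genes were -0.45 for complex I, -0.39 for complexes II to V and -0.45 for ribosomal genes.

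These medians were smaller in size without 3 carriers. The 3 were picked for their low complex I mean after the values were seen, so a smaller complex I median was favoured by the choice. The ribosomal mean was 11.64, 11.16 and 11.59 on 3xTgAD/Polb+/- 1 and 2 and 3xTgAD 3, against 12.07 to 12.28 on non-carrier arrays. It was also below every non-carrier, by less, on 3xTgAD/Polb+/- 4 (11.96) and on 3xTgAD 1, 4 and 6 (12.06, 12.02 and 12). Without 3xTgAD/Polb+/- 1 and 2 and 3xTgAD 3 the median was -0.08 for complex I, -0.09 for complexes II to V and -0.06 for ribosomal genes. The medians were also larger in heterozygotes, where 2 of the 3 stand: -0.58 against -0.16 with both Polb copies for complex I, and -0.64 against -0.12 for ribosomal genes. RNA quality was not measured in the files used, and its part in these values was not tested. Of 25 antioxidant enzymes 17 were lower and 8 higher, with a median of -0.08, and Mt3, a brain metallothionein, was nearest to the threshold at -0.83 (limma adjusted p = 0.0933).

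**Figure D5:**
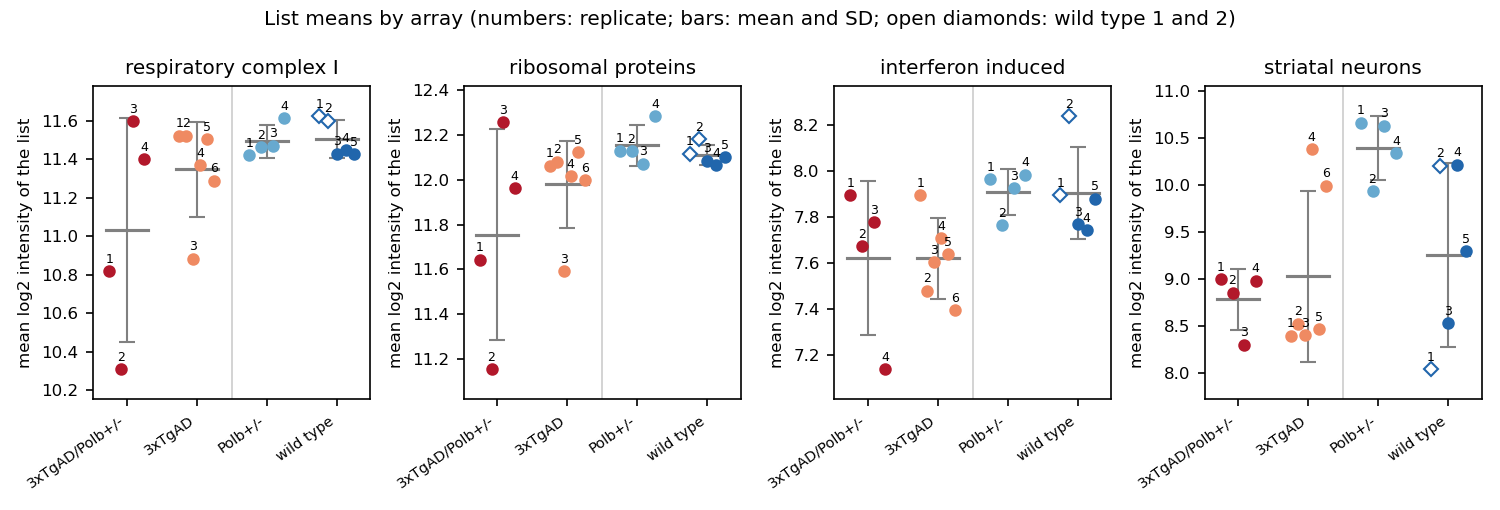
Mean log2 intensity of the complex I, ribosomal, interferon-induced and striatal gene lists on each array of the 4 genotypes, with the mean of each genotype as a bar. The lowest complex I and ribosomal values belong to 3xTgAD/Polb+/- 1 and 2 and 3xTgAD 3, and some other carriers also lie below all non-carriers, by less. Striatal means vary by more than 2 on the log2 scale within carriers and within non-carriers.

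Striatal genes had the largest median of any list, at -0.76, with 10 of 11 lower in carriers and 0 passed. Drd1 (-1.19, limma adjusted p = 0.0832) and Tac1, a precursor of substance P (-1.01), had the smallest p. The median was -1.64 in heterozygotes and -0.14 with both Polb copies. The mean of the list was 8.31 to 10.38 on carrier arrays and 8.05 to 10.66 on non-carrier arrays, the arrays labelled 3xTgAD 4 and 6 being the highest carriers at 10.38 and 9.99. Cortical layer markers (16 tested, median -0.04) and interneuron markers (15 tested, median -0.01) had 0 genes past the threshold. With the striatal mean as a covariate 19 genes passed. How much striatum each piece of tissue held was not tested beyond these marker levels.

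Several lists had medians above that of all genes. Of 19 genes of cholesterol synthesis and uptake 14 were higher and 5 lower in carriers, with a median of 0.14 and 0 passed. Insig1, a sensor that restrains this pathway, was nearest at 0.46 (limma adjusted p = 0.136). Of 28 lysosomal genes 22 were higher and 6 lower, with a median of 0.08, and Galc passed. Of 23 synaptic vesicle and release genes 16 were higher and 7 lower, with a median of 0.08, and Sv2b, a vesicle protein, passed. Sv2b read 12.58 to 13.27 in carriers and 12.15 to 12.57 in non-carriers without overlap, a difference of 0.35 ± 0.08 (limma adjusted p = 0.0435), and stayed past the threshold in 3 of 19 fits with 1 array left out. Of 16 circadian clock genes 12 were higher and 4 lower, with a median of 0.08 and 0 passed, and Ciart, a repressor of the clock, passed without wild type 1 and 2 (0.73, limma adjusted p = 0.0421, against 0.44 with them). Under median scaling, where the median of all genes was -0.10, these 4 medians were below 0, and relative to all genes they were 0.10 for cholesterol, -0.0012 for lysosomal, -0.02 for synaptic vesicle and 0.03 for clock genes. With wild type 1 and 2 left out, the cholesterol and lysosomal medians were 0.23 and 0.13. Blood cell genes had a median of 0.35 over 8 genes, with 0 passed. The median was -0.43 in heterozygotes, where no wild type array stands, 0.51 with both Polb copies and -0.04 without wild type 1 and 2. Its direction thus differed between these fits.

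In 20 genes of base excision and single-strand break repair, the pathway of Polb, 8 were higher and 12 lower, with a median of -0.01 (0.0086 without wild type 1 and 2) and 0 passed. Tdp1, which removes proteins trapped on DNA ends, was nearest at 0.46 (limma adjusted p = 0.0794), and it passed without wild type 1 and 2, at 0.61 (limma adjusted p = 0.0279). Of 19 immediate early genes, which neurons switch on with activity, 13 were lower and 6 higher, with a median of -0.08 and 0 passed. Bdnf, a neurotrophin, had a difference of -0.41 (limma adjusted p = 0.0803). With wild type 1 and 2 left out, Bdnf (-0.54, limma adjusted p = 0.0255) and Fosb, a partner of Jun in the AP-1 factor (-0.66, limma adjusted p = 0.0491), were past the threshold, and the median was -0.05. Myelin genes (18 tested, median 0.03), reactive astrocyte genes (15 tested, median 0.04) and vascular genes (19 tested, median 0.04) also had 0 genes past the threshold, and under median scaling their medians were -0.16, -0.05 and -0.09. No gene passed with all arrays among homeostatic astrocyte genes (14 tested, median 0.05), oligodendrocyte precursor genes (8, -0.03) or choroid plexus genes (7, -0.04). None passed among postsynaptic proteins (20, 0.0003, and -0.039 without wild type 1 and 2) or receptors for glutamate and GABA (20, 0.08). Nor did any among proteasome subunits (27, -0.06), chaperones (26, -0.04) or p53 targets (17, -0.03, and 0.02 without wild type 1 and 2), although Psmd1 (-0.37) and Atf4 (-2.50) passed without wild type 1 and 2 (limma adjusted p = 0.0487 and 0.0318). Apbb2, Fosb, Ndufb10 and Atf4 are named after their values were seen. Of 20 hydroxysteroid dehydrogenase and lipid droplet genes, with a median of 0.0011 (-0.00065 without wild type 1 and 2), Hsd17b11 passed.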

How the data were processed

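RNA of prefrontal cortex was measured on Illumina bead arrays, 1 RNA sample on each. The authors deposited a non-normalised intensity per probe and array, with a lowest value of 30.4, and beside it a detection p-value, per the file headers. The authors' second deposited file holds a score, equal to the z score of the log10 intensities within each array (to 5e-10), used as an alternative. GenomeStudio 1.9.0 is named per the submitters' processing notes, and other steps are not given in the sources used here.

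The intensities were background-corrected and quantile-normalised with neqc (offset 16) of limma 3.58.1 in R 4.3.3 (with data.table, version 1.17.8). Probes with a detection p under 0.05 on at least 4 arrays were kept (14942 of 25697). The brightest kept probe stood for each symbol (2740 symbols had several), which gave 11072 genes, 855 of them unnamed probes. Symbols came from the platform annotation, and Entrez identifiers matched 23962 of 23978. Gene order along chromosomes is that of RefSeq's mouse annotation.

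limma's lmFit and eBayes fitted transgene, Polb genotype and label spelling to all 19 arrays (15 residual degrees of freedom), with Benjamini-Hochberg over 11072 genes, two-sided. A gene undetected on all arrays of 1 side is given a fold only as a bound. Errors are standard errors. The number of arrays limits the precision. The fit was tested on simulated data.

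The comparison, the 33 gene lists (846 genes) and the named genes were chosen with earlier results of these data known. Named were up to 15 genes in each direction by smallest p, up to 4 that passed per list or otherwise the 2 with the smallest p, all that passed on the chromosomes with the most, App, Mapt, Thy1 and Polb, and genes with p under 0.001 in both Polb backgrounds. Because chromosomes 5 and 8 tied, 3 chromosomes were described. Not every gene the rule allows is described. One allele of the line, 1 further gene the rule names and 1 further gene list are not reported here. Replicate numbers did not pair the arrays: of 25 pairs of the same number, 7 correlated above 0.1 after the group means were removed (-0.345 to 0.441). Whether the arrays labelled 3xTgAD 2 and 5, which share a code, are 1 mouse is not stated. Alternatives covered covariates, normalisation, filters, probe choice, array weights and leaving out arrays. Leaving out wild type 1 and 2 together, or the 3 carriers low in complex I, was added after the values were seen.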

Additional observations from a re-analysis of the deposited data

Results flagged for a closer look

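Among the 30 genes with the smallest p and the 4 always named, 136 groups of 4 to 6 arrays were tested for a single array far from the others, and 8 (5.88%) held one, where chance gives about 1 in 20. Cdkal1 read 6.59 on wild type 1, below the next wild type array at 7.27. Galc read 6.17 on Polb+/- 4, above the next at 5.91. Spata7 read 7.05 on 3xTgAD 6, above the next at 4.70. Tpmt read 5.55 on wild type 2, above the next at 4.72. Myl2 read 6.08 on 3xTgAD 1, above the next at 5.08. Zfp706 read 6.32 on 3xTgAD/Polb+/- 1, above the next at 4.86. Hsd17b11 read 10.32 on 3xTgAD 4, above the next at 9.92. Cntnap5b read 5.23 on Polb+/- 4, below the next at 5.89. Of these arrays, wild type 1 and 2, 3xTgAD 4 and 6 and 3xTgAD/Polb+/- 1 also stood apart in other measures given above.

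The difference of Cnnm1 between carriers and non-carriers differed between the label spellings by -1.21 (limma adjusted p = 0.0322 for the interaction).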

How the results depend on the processing

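The 97 genes kept their sign under every alternative in which they were tested, as their choice on these arrays favours, and counts of genes moved more. The count was 62 without the spelling term, 35 with transgene alone, 152 and 3 within the spelling with and without a hyphen, 0 and 152 with both Polb copies and in heterozygotes, 46 with the replicate block (37 of the 97 among them), 44 with no filter, 272 with array weights, 37 with 3xTgAD 2 and 5 averaged, 156 without 3xTgAD 4 and 6, 19 with the striatal mean as a covariate, 219 without wild type 1 and 2 and 11 without the 3 carriers low in complex I. Leaving out 1 array gave 25 to 389. The replicate numbers pair no arrays, so the block's result is given here only.

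With both Polb copies, where 0 genes passed, 4 passed with the replicate block, 2 with quantile normalisation and no background correction, 3 with the authors' scores, 1 with median scaling, 2 with a strict filter, 8 with array weights, 3 with trend and robust fitting, 12 without 3xTgAD 4 and 6, 2 with the striatal covariate and 25 without wild type 1 and 2, and 0 to 5 with 1 array left out. In heterozygotes, where 152 passed, the counts were 56 without the spelling term, 254 with median scaling, 24 with no filter, 87 with a strict filter, 299 with array weights, 230 with trend and robust fitting, 0 with the striatal covariate (limma) and 12 without the low carriers, and 40 to 633 with 1 array left out. The interaction with Polb had 1 gene with every probe tested and 0 to 1 with 1 array left out. That with spelling had 0 under the block, median scaling, no filter, array weights, without 3xTgAD 4 and 6, with the striatal covariate and without the low carriers, and 0 to 10 with 1 array left out.

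Of the named genes that did not pass, signs reversed for App (-0.023 with median scaling), Mapt (0.0011 with transgene alone, 0.052 without a hyphen, 0.030 in heterozygotes, 0.0064 without 3xTgAD 4 and 6), C4b (-0.39) and Rgs5 (0.027) without a hyphen, and Camk2a (-0.021) and Sesn1 (-0.0098) with median scaling. The causes were not tested. What signal over background limits was not tested, and bounds stand for genes undetected on 1 side.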

Other observations

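Some genes split the arrays into separate high and low sets along other lines, and none of those given here passed with all 19 arrays, though Atf4 did without wild type 1 and 2. They were chosen after their values were seen. Cops8, a subunit of the COP9 signalosome, read 9.96 to 10.71 on all 10 carrier arrays, against 9.72 to 10.58 on 6 non-carrier arrays and 5.15, 5.13 and 5.68 on Polb+/- 1, Polb+/- 3 and wild type 3. Thap4, which like Cops8 lies on chromosome 1, was low on the same 3 arrays, at 6.81, 6.50 and 6.63, against 7.94 to 8.85 on the other non-carrier arrays and 8.13 to 9.18 on the carrier arrays.

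Pou6f1, a transcription factor of neurons, read 4.50 to 4.59 on 3xTgAD/Polb+/- 1 and 2, 3xTgAD 1 and 6 and wild type 1 and 2, against 9.29 to 11.02 on the other 13 arrays. Atf4, a transcription factor of the stress response on the same chromosome 15, read 5.30 to 7.06 on those 6 arrays and on 3xTgAD/Polb+/- 4, and 8.49 to 10.63 on the other 12. Wild type 1 and 2 thus lay with some carriers there too.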
